A study of Mus musculus with 6 samples.

Results

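The iron uptake, storage and heme genes described here are 10 mouse genes, Tfrc, Steap3, Slc11a2, Fth1, Ftl1, Ncoa4, Slc40a1, Aco1, Ireb2 and Fech, chosen by symbol from the 27482 gene symbols of the count table. All 10 were found in the table, and 9 passed the low-count filter and were tested. Gene expression was measured by RNA-seq in 6 libraries labelled as mouse heart, 3 of genotype FNDC4 overexpression (AAV9-hFNDC4) and 3 of genotype Control (AAV9-CTRL), where AAV9 is an adeno-associated virus used as a gene vector. Every mouse of either group had ischemia/reperfusion (I/R) surgery, in which blood flow to the heart is blocked for a time and then restored, and hearts were collected at 24 h. The series title gives male mice. The sources used here do not give strain, age, vector promoter or any pooling of animals. No label ties the 6 libraries to separate animals, so the p-values describe the spread between libraries, and that spread may be technical.

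Cells take up iron mainly as iron bound to transferrin, which the transferrin receptor carries into endosomes, where a reductase and a divalent metal transporter move it to the cytosol. Iron not in use is stored in ferritin, a shell of heavy and light chains, is released when ferritin is delivered to lysosomes, leaves the cell through ferroportin, or enters mitochondria for heme and iron-sulfur clusters. When iron is scarce, the iron regulatory proteins IRP1 and IRP2 bind hairpins called iron-responsive elements (IREs). Binding in the 3′ untranslated region (UTR) of Tfrc protects that mRNA from decay, and binding in the 5′ UTR of ferritin and ferroportin mRNAs blocks their translation.

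The IREs are shown because they are the sequences through which Tfrc, the ferritin chains and ferroportin are controlled together. They were found in GENCODE vM21 transcripts (GRCm38) with the motif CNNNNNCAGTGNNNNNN on the transcript strand, an unpaired C and a loop of CAGTGN closed by 5 base pairs, with G-T pairs allowed. Capitals mark the loop, and each site is given as 30 bases, 5′ to 3′, with the letter T for U.
Tfrc 3′ UTR site 1, chr16:32631218-32631247, + strand: taattatcggaagCAGTGCcttccataatt
Tfrc 3′ UTR site 2, chr16:32631597-32631626, + strand: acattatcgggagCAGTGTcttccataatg
Tfrc 3′ UTR site 3, chr16:32631662-32631691, + strand: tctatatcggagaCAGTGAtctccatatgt
Tfrc 3′ UTR site 4, chr16:32631709-32631738, + strand: taattatcgggaaCAGTGTttcccataatt
Fth1 5′ UTR, chr19:9982731-9982760, + strand: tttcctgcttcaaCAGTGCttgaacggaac
Ftl1 5′ UTR, chr7:45459779-45459808, - strand: tgtcttgcttcaaCAGTGTttgaacggaac
Slc40a1 5′ UTR, chr1:45925465-45925494, - strand: ccaacttcagctaCAGTGTtagctaagttt

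In the longest coding transcript, the motif was found in 4 of the 10 genes, with 4 sites in Tfrc and 1 each in Fth1, Ftl1 and Slc40a1. Over all 21875 coding genes, the longest coding transcript held a match in 1.24%, a match in the 5′ UTR in 0.0960% and a match in the 3′ UTR in 0.535%. A match describes letters only, and its absence from the longest coding transcript of the other 6 genes says nothing about binding. Other transcripts of Fech were left out of the sites shown.

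Total counts lay between 32975817 and 36074046 per library. Most markers that define heart muscle were nearly absent. Of 12 cardiomyocyte markers, 3 reached 1 CPM (the count scaled by library size) in at least 3 libraries. Tnnt2 had the highest mean of these at 44.6 CPM, followed by Ttn at 4.28 CPM, and Pln (phospholamban) had no counts. Cardiomyocyte markers summed to 47.9 to 49.5 CPM in the AAV9-hFNDC4 libraries against 54.3 to 56.2 CPM in the AAV9-CTRL libraries. The groups are therefore named by their labels. Fibroblast markers summed to 8600 to 9468 CPM in the AAV9-hFNDC4 libraries against 3632 to 3839 CPM in the AAV9-CTRL libraries, with 5 of 9 at 1 CPM. Fn1, fibronectin, had the highest mean of these at 3778 CPM, followed by the collagens Col1a2, Col1a1 and Col3a1, while Dcn, Lum, Postn and Tcf21 had 9, 1, 25 and 1 counts over the 6 libraries. Macrophage and leukocyte markers summed to 19.7 to 22.8 CPM against 34.2 to 42.1 CPM (4 of 8 at 1 CPM), and hepatocyte markers to 0.0284 to 0.200 CPM against 1.03 to 1.94 CPM (0 of 6). Red cell precursor markers summed to 8.165 to 11.96 CPM against 7.12 to 11.8 CPM (2 of 8, with Hbb-bs and Gata1 at 0 counts), endothelial markers to 2.05 to 3.81 CPM against 2.85 to 5.19 CPM (2 of 7, with Emcn at 0 counts), and neutrophil markers to 0.0569 to 0.523 CPM against 0.273 to 1.41 CPM (0 of 5). The part of these differences in the results below was not tested. In bulk RNA, fewer cells of a type and less RNA per cell cannot be told apart. Fndc4 itself was not analysed here, so no vector transcript checks the labels.

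The question was how these iron and heme genes differ between libraries labelled AAV9-hFNDC4 and AAV9-CTRL, from tissue labelled as heart after I/R. Of the 9 tested genes, 4 were lower in the AAV9-hFNDC4 libraries, at a Benjamini-Hochberg adjusted p under 0.05, namely the transferrin receptor Tfrc (2.85-fold), the ferritin chains Ftl1 (1.76-fold) and Fth1 (1.32-fold), and Aco1, which encodes IRP1 (1.32-fold). None was higher by edgeR's quasi-likelihood test, with 0 higher at an unadjusted p under 0.05 and 0 by DESeq2 or limma-voom. Over all 14663 genes tested, 25.0% were lower and 22.1% higher (47.1% in all). The median log2 fold change of the 9 genes was -0.30, against 0.01 over all genes tested. The other 5 tested genes did not pass, namely Steap3 and Slc11a2 of uptake, Ncoa4 of ferritin turnover, Ireb2 (IRP2) and Fech of heme synthesis.

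**Figure D1:**
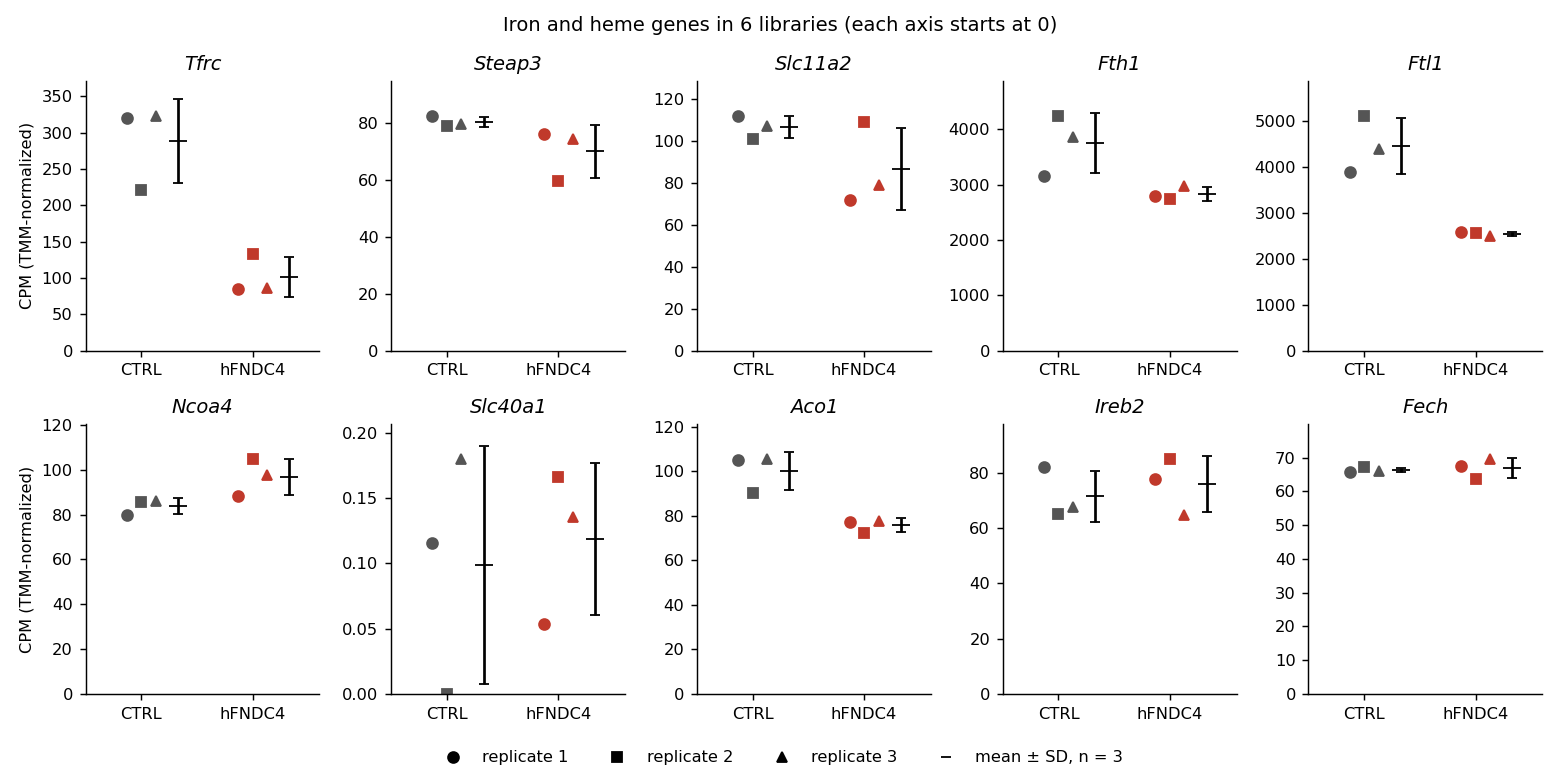
TMM-normalized CPM of the 10 genes in each library, by group, with the mean and SD of 3 libraries at the right of each group; every vertical axis starts at 0. Tfrc, Fth1, Ftl1 and Aco1 lie lower in all 3 AAV9-hFNDC4 libraries than in any AAV9-CTRL library, and Slc40a1 stays under 0.2 CPM in every library.

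Among the uptake genes, Tfrc (chromosome 16, 32608920 to 32632794) encodes transferrin receptor 1. It stood at 84.9, 133 and 86.1 CPM in AAV9-hFNDC4 replicates 1 to 3, and at 320, 221 and 322.5 CPM in AAV9-CTRL replicates 1 to 3. The groups did not overlap, although replicate 2 was the highest of the AAV9-hFNDC4 libraries and the lowest of the AAV9-CTRL libraries, so these 2 libraries lay closest together. The means were 101 ± 27.2 and 288 ± 57.7 CPM (SD, n = 3 each), a log2 fold change of -1.51 (SE 0.19, adjusted p = 0.000134 by edgeR). Of the 14663 genes tested, 675 (4.60%) had a lower fold change than Tfrc. Tfrc kept its call under all 15 alternatives, in a range of log2 fold changes from -1.77 to -1.39.

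Steap3 (chromosome 1, 120190757 to 120272705) encodes the endosomal reductase that prepares transferrin-borne iron for transport. Its levels were 76.2, 59.5 and 74.4 CPM in AAV9-hFNDC4 replicates 1 to 3 against 82.4, 78.9 and 79.7 CPM in AAV9-CTRL replicates 1 to 3. The groups did not overlap, yet the log2 fold change of -0.20 (SE 0.12) did not pass (adjusted p = 0.183 by edgeR), with AAV9-hFNDC4 replicate 2 well below the other libraries. Slc11a2 (chromosome 15, 100387898 to 100425072) encodes DMT1, the transporter that moves iron out of the endosome. Its levels were 71.6, 109 and 79.1 CPM in AAV9-hFNDC4 replicates 1 to 3 against 112, 101 and 107 CPM in AAV9-CTRL replicates 1 to 3. AAV9-hFNDC4 replicate 2 lay within the range of the AAV9-CTRL libraries and the log2 fold change of -0.30 (SE 0.14) did not pass (adjusted p = 0.109 by edgeR). Without that library it was -0.49 and passed (adjusted p = 0.00565 by edgeR, in a range from 0.00565 to 0.391 over the alternatives).

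The ferritin chains were the most abundant of the 10 transcripts by far. Together they took 0.544% to 0.585% of all counts in the AAV9-hFNDC4 libraries and 0.676% to 0.888% in the AAV9-CTRL libraries. Ftl1 ranked 8th and Fth1 12th by mean CPM among all genes tested.

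Ftl1 (chromosome 7, 45457944 to 45459884) encodes the light chain, which helps the iron core to form. Its levels were 2571, 2560 and 2488 CPM in AAV9-hFNDC4 replicates 1 to 3 against 3893, 5099 and 4382 CPM in AAV9-CTRL replicates 1 to 3. The AAV9-hFNDC4 libraries lay close together, with a coefficient of variation of 1.78% against 13.6% in the AAV9-CTRL libraries, and far below the lowest of the latter. The log2 fold change was -0.81 (SE 0.12, adjusted p = 0.000287 by edgeR), and it kept its call under all 15 alternatives. Ftl1 counts are uncertain in origin, since 90.6% of the 50-base stretches of its transcript also occur in transcripts of 17 other annotated genes, among them Ftl1-ps1, Ftl1-ps2 and Ftl2-ps, and 47.9% of its exon bases overlap 2 other genes.

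Fth1 (chromosome 19, 9980598 to 9985098) encodes the heavy chain, the ferroxidase subunit that oxidizes iron on entry. It stood at 2795, 2739 and 2978 CPM in AAV9-hFNDC4 replicates 1 to 3 against 3161, 4236 and 3856 CPM in AAV9-CTRL replicates 1 to 3. The groups did not overlap, with AAV9-CTRL replicate 1 the nearest to the AAV9-hFNDC4 libraries. The log2 fold change of -0.40 (SE 0.13) passed (adjusted p = 0.0201 by edgeR), but 8 of 15 alternatives ended the call. It was lost without AAV9-hFNDC4 replicate 1 (adjusted p = 0.0791 by edgeR), 2 (0.0711) or 3 (0.0526), without AAV9-CTRL replicate 2 (0.0516) or 3 (0.0749), with the replicate block (0.0502), with upper-quartile normalization (0.0553) and with the length correction (0.256). Its adjusted p ranged from 0.00163 to 0.256 over the alternatives.

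Ncoa4 (chromosome 14, 32159865 to 32179855) encodes the cargo receptor that takes ferritin to the lysosome, where its iron is released. Its levels were 88.3, 105 and 97.5 CPM in AAV9-hFNDC4 replicates 1 to 3 against 79.9, 85.5 and 86.0 CPM in AAV9-CTRL replicates 1 to 3. It was the only one of the 9 tested genes with every AAV9-hFNDC4 library above every AAV9-CTRL library, as were 27.1% of all genes tested, but the log2 fold change of 0.21 (SE 0.10) did not pass (adjusted p = 0.123 by edgeR). Of its 50-base stretches, 43.1% also occur in the transcript of Gm6768. Groups that did not overlap in the other direction were seen for 5 of 9, namely Tfrc, Fth1, Ftl1, Aco1 and Steap3, against 29.5% of all genes tested (56.6% in either direction).

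Slc40a1 (chromosome 1, 45908068 to 45926523) encodes ferroportin, the only known iron exporter of mammalian cells. It had 2, 6 and 5 counts in AAV9-hFNDC4 replicates 1 to 3 and 4, 0 and 6 counts in AAV9-CTRL replicates 1 to 3. It was too low to be tested, and the ratio of the summed counts, 13 against 10, was 1.31 with an exact 95% binomial interval from 0.529 to 3.33, which covers counting error only. The 0 in AAV9-CTRL replicate 2 allows up to 3 counts, or 0.0910 CPM.

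The iron regulatory proteins are the sensors of the system. Aco1 (chromosome 4, 40143081 to 40198338) encodes IRP1, which is cytosolic aconitase when it carries an iron-sulfur cluster and binds IREs when it does not. Its levels were 77.3, 72.3 and 77.7 CPM in AAV9-hFNDC4 replicates 1 to 3 against 105, 90.4 and 105 CPM in AAV9-CTRL replicates 1 to 3. The groups did not overlap, and the log2 fold change was -0.40 (SE 0.11, adjusted p = 0.00818 by edgeR), called under all 15 alternatives.

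Ireb2 (chromosome 9, 54863789 to 54912530) encodes IRP2, which is degraded when iron is plentiful. It stood at 77.8, 84.9 and 65.0 CPM in AAV9-hFNDC4 replicates 1 to 3 against 82.0, 65.0 and 67.5 CPM in AAV9-CTRL replicates 1 to 3. The groups overlapped almost fully, with a log2 fold change of 0.08 (SE 0.13, adjusted p = 0.622 by edgeR), which was -0.19 with the length correction and -0.19 with the GC correction. Fech (chromosome 18, 64452914 to 64490251) encodes ferrochelatase, which inserts iron into protoporphyrin in the last step of heme synthesis. It varied least of the 10 within the AAV9-CTRL libraries, at 67.6, 63.7 and 69.5 CPM in AAV9-hFNDC4 replicates 1 to 3 against 65.8, 67.2 and 66.1 CPM in AAV9-CTRL replicates 1 to 3. Its log2 fold change was 0.01 (SE 0.10, adjusted p = 0.927 by edgeR).

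Transcript length moved with the fold changes over all genes. Tested genes were split into 10 bins of equal size by the length of their longest annotated transcript, and the median log2 fold change went from -0.47 in bin 1, the shortest, to 0.46 in bin 10, the longest. Ftl1 (968 bases) and Fth1 (1494 bases) fall in bins 1 and 2, with medians of -0.47 and -0.35. The fold change of Fth1 was thus close to that of genes of its length, and with a correction for length it was -0.12 and not called, while Ftl1 was -0.43 and still called. Tfrc (4890 bases) lies in bin 8, whose median was 0.15, so its lower level ran opposite to the trend, and it was -1.71 with the correction. With the correction 3 long genes were also called lower, Slc11a2 at -0.47 (adjusted p = 0.018 by edgeR), Steap3 at -0.42 (0.0115) and Fech at -0.34 (0.0204), which brought the count to 6 of 9. Over all 14663 genes tested, 3621 were lower and 2717 higher with the correction. The cause of the length trend was not tested.

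**Figure D2:**
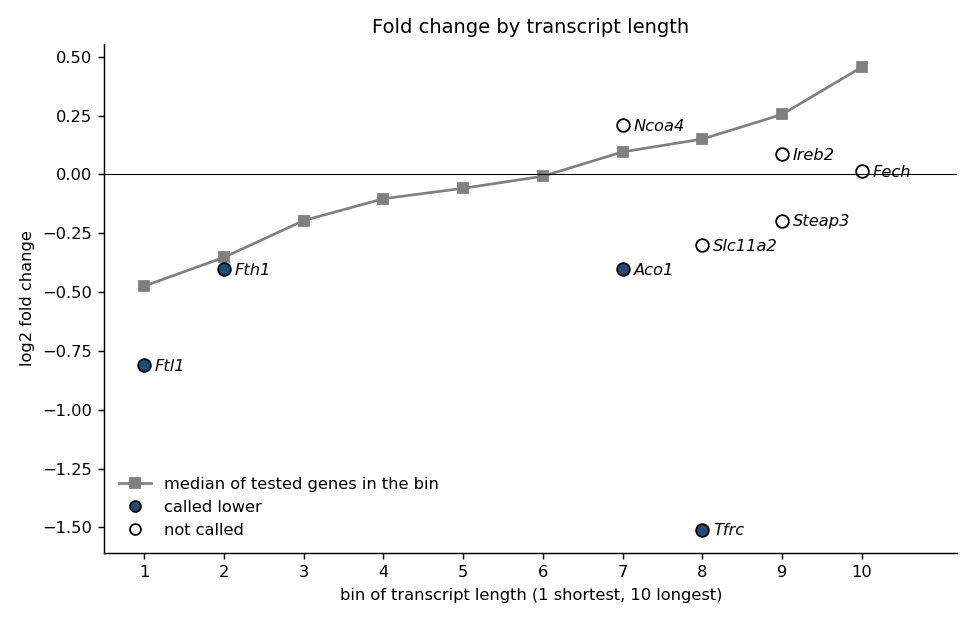
Log2 fold change (AAV9-hFNDC4 over AAV9-CTRL, vertical axis) against the bin of transcript length (horizontal axis, 1 to 10) for the 9 tested genes, with the median of all tested genes in each bin as grey squares. Fth1 lies near the grey line and Ncoa4 above it, while Tfrc, Aco1, Ftl1, Slc11a2, Steap3, Fech and Ireb2 lie below it.

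**Figure D3:**
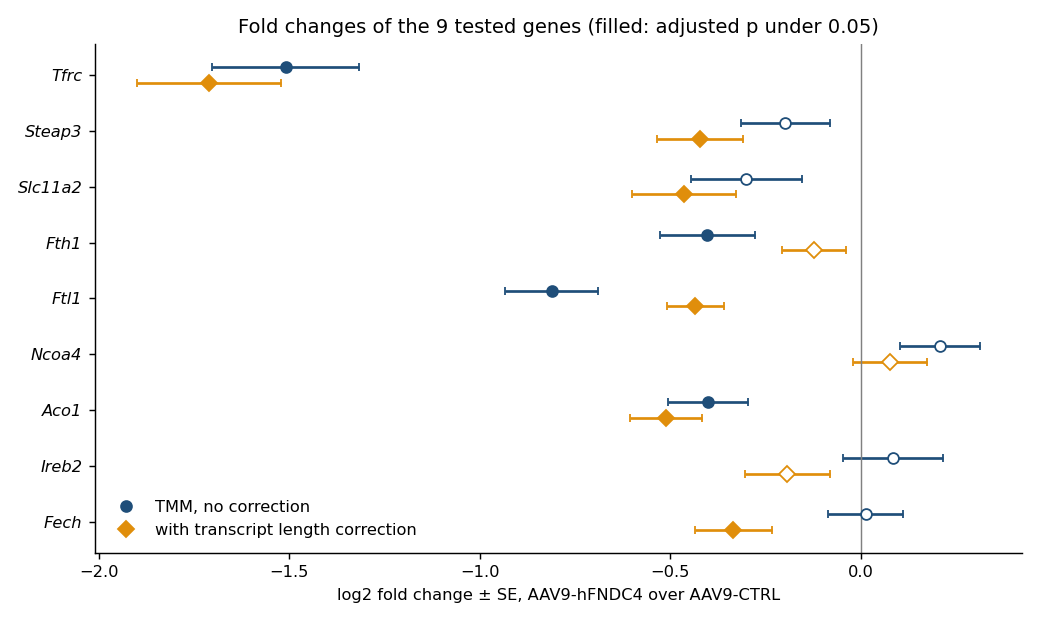
Log2 fold change with its SE for the 9 tested genes, without (circles) and with (diamonds) the transcript length correction; filled symbols passed an adjusted p of 0.05. Tfrc, Ftl1 and Aco1 are filled in either case, Fth1 only without the correction, and Steap3, Slc11a2 and Fech only with it.

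Levels were compared between genes as CPM per kilobase of annotated exon. In the AAV9-CTRL libraries the order was Ftl1 (4605 ± 627, SD, n = 3), Fth1 (2407 ± 350), Tfrc (55.4 ± 11.1), Aco1 (26.1 ± 2.21), Ncoa4 (20.5 ± 0.833), Slc11a2 (18.6 ± 0.928), Steap3 (14.2 ± 0.322), Ireb2 (12.4 ± 1.59), Fech (9.22 ± 0.0995) and Slc40a1 (0.0292 ± 0.0270). Ranges of Steap3 and Ireb2 overlapped there, and the other neighbours in the order did not overlap. In the AAV9-hFNDC4 libraries Ftl1 (2624 ± 46.6) and Fth1 (1821 ± 80.4) again led, while Tfrc moved from the third place to the fifth at 19.5 ± 5.24, behind Ncoa4 (23.6 ± 2.005) and Aco1 (19.8 ± 0.7945), and its range of 16.3 to 25.5 overlapped the ranges of Ncoa4, Aco1 and Slc11a2. Slc11a2 stood at 15.1 ± 3.42, Ireb2 at 13.2 ± 1.75, Steap3 at 12.4 ± 1.63, Fech at 9.30 ± 0.409 and Slc40a1 at 0.0352 ± 0.0173. The values for Ftl1 and Ncoa4 depend on how reads shared with their copies were counted.

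Ratios of counts within a library do not depend on how libraries are scaled, and 5 were taken after the single values had been seen, mostly of genes that already differed, so they are given as a description with no test. Per 100 Fth1 counts there were 3.04, 4.84 and 2.89 Tfrc counts in AAV9-hFNDC4 replicates 1 to 3 and 10.1, 5.23 and 8.365 in AAV9-CTRL replicates 1 to 3. Light chain counts per heavy chain count (Ftl1 over Fth1) were 0.920, 0.935 and 0.835 against 1.23, 1.20 and 1.14. Ftl1 counts thus exceeded Fth1 counts in every AAV9-CTRL library and in no AAV9-hFNDC4 library. These counts are not divided by length. Per kilobase of exon, Ftl1 lay above Fth1 in both groups. The ranges were 2570 to 2656 against 1758 to 1912 CPM in the AAV9-hFNDC4 libraries. In the AAV9-CTRL libraries they were 4021 to 5267 against 2029 to 2719 CPM. Ftl1 counts may also include reads shared with its copies. Tfrc counts per Slc11a2 count were 1.19, 1.22 and 1.09 against 2.87, 2.19 and 3.02, a tighter grouping than Tfrc alone showed within the AAV9-hFNDC4 libraries. Of the other two, Ireb2 over Aco1 averaged 1.01 ± 0.170 against 0.715 ± 0.0706, and Ncoa4 per 100 Ftl1 counts 3.81 ± 0.340 against 1.90 ± 0.196 (SD, n = 3 each). None of these 5 chosen ratios overlapped between the groups. The ratios were not corrected for the length trend. Ncoa4 and Ftl1 lie in length bins 7 and 1, and with the length correction their log2 fold changes were 0.08 and -0.43.

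**Figure D4:**
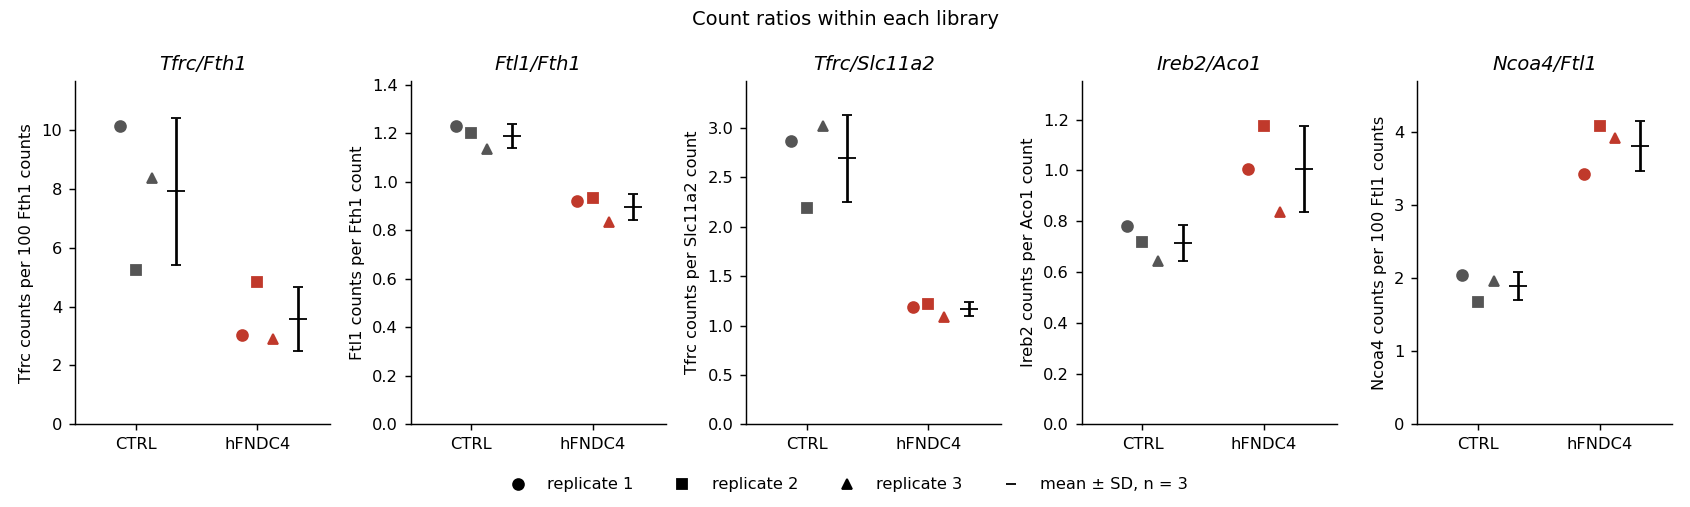
Count ratios within each library for 5 pairs of iron genes, by group, with the mean and SD of 3 libraries; every vertical axis starts at 0. The groups do not overlap in any panel, and AAV9-CTRL replicate 2 (5.23) lies closest to the AAV9-hFNDC4 libraries in the ratio of Tfrc to Fth1.

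The other genes of iron handling were taken from 8 lists that hold 85 further genes of the table, of which 75 were tested, 12 higher (16.0%, against 22.1% over all genes tested), 29 lower (38.7%, against 25.0%) and 34 not called. Their median log2 fold change was -0.12, against 0.01 over all genes tested, and -0.07 against -0.02 with the length correction. Iron-sulfur cluster assembly held the most lower genes. The lists of import and of export held the largest increases, of which those of Slc39a8 and Heph were seen at low levels.

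Of 11 tested genes in the list of other import and transport, 5 were higher and 2 lower, with a median of 0.44; with the length correction 3 were higher. That is 45.5% higher against 22.1% of all genes tested, and 18.2% lower against 25.0%. Lrp1, a large endocytic receptor that also takes up heme bound to hemopexin, was higher at 1089 ± 68.3 against 513 ± 81.4 CPM (by 1.09 on the log2 scale, SE 0.13, and by 0.43 with the length correction, still called). Steap2, another metalloreductase, was higher by 0.79 (SE 0.12), which was 0.26 and not called with the length correction (adjusted p = 0.06 by edgeR, the highest of a range from 4.9e-10). The plasma proteins haptoglobin (Hp, -3.41, SE 0.81) and hemopexin (Hpx, -1.14, SE 0.29), which bind free hemoglobin and heme, were lower, Hp at only 0.0625 ± 0.0858 against 0.704 ± 0.142 CPM. The fold change of Hp rests on 7 counts against 70, and it was -5.35 without AAV9-hFNDC4 replicate 1. Hp and Trf (transferrin) are also hepatocyte markers, and the other 4 of these summed to 0.0284 to 0.0291 against 0.394 to 0.832 CPM. Named after their values were seen, the other 3 higher genes were Tfr2 (1.12), Lcn2 (0.92) and Slc39a8 (2.02). Tfr2 stood at the low level of 2.86 ± 0.208 against 1.32 ± 0.350 CPM. Slc39a8 stood at only 0.784 ± 0.375 against 0.188 ± 0.183 CPM, from 86 counts against 19. The call of Slc39a8 was lost without AAV9-hFNDC4 replicate 2 (adjusted p = 0.133 by edgeR) or 3 (0.0945), or AAV9-CTRL replicate 1 (0.116) or 2 (0.0937), with the length correction (0.0501) or with the replicate block (0.0609), and its adjusted p lay between 0.0131 and 0.133 over the alternatives. Its log2 fold change was 3.07 without AAV9-CTRL replicate 3. Trf had 0 counts in the AAV9-hFNDC4 libraries and 26 in the AAV9-CTRL libraries, too few to be tested.

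Among 5 genes of export and iron oxidation, 2 were higher and 1 lower, with a median of 0.82. That is 40% higher against 22.1% of all genes tested, and 20% lower against 25.0%. Cp, ceruloplasmin, the copper oxidase that loads exported iron onto transferrin, stood at 701, 774 and 835 CPM in AAV9-hFNDC4 replicates 1 to 3 against 264, 361 and 296 CPM in AAV9-CTRL replicates 1 to 3. The groups lay far apart, and the log2 fold change of Cp was 1.33 (SE 0.13, adjusted p = 2.83e-05 by edgeR). Heph, hephaestin, a related oxidase, was higher by 1.86 (SE 0.45) at the low level of 2.001 ± 0.610 against 0.552 ± 0.270 CPM. Flvcr1, first described as a heme exporter, was lower with -0.85 (SE 0.16).

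Of 7 tested iron chaperones and mitochondrial iron genes, 1 was higher (14.3%) and 3 lower (42.9%), with a median of -0.15. Over all genes tested, 22.1% were higher and 25.0% lower. With the length correction 0 of the 7 were higher and 3 lower. Pcbp1, a chaperone that delivers iron to ferritin, was lower at 174 ± 9.13 against 294 ± 26.0 CPM (-0.76, SE 0.10). Glrx3 (-0.81, SE 0.10) and Bola2 (-0.97, SE 0.14, and -0.62 with the length correction), partners in cytosolic iron-sulfur transfer, were lower too. Slc25a37, the mitochondrial importer mitoferrin 1, was higher by 0.30 (SE 0.11), a call that 8 of 15 alternatives ended, among them leaving out any AAV9-hFNDC4 library (adjusted p = 0.0709 by edgeR, 0.114 and 0.0847) or AAV9-CTRL replicate 2 (0.0902) or 3 (0.0961), in a range from 0.0122 to 0.193.

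In the list of sensing and systemic regulation, 1 of 6 tested genes was higher and 1 lower (16.7% each), with a median of 0.31. Over all genes tested, 22.1% were higher and 25.0% lower. With the length correction 2 were lower, as Herc2 gained a call (-0.53, adjusted p = 0.00292 by edgeR). Over the alternatives, 1 to 3 were higher and 1 to 2 lower. Neo1, neogenin, a receptor of the hepcidin pathway, was higher by 0.62 (SE 0.11; by 0.23 and still called with the length correction), and Tax1bp1, which acts with Ncoa4 in ferritin turnover, was lower with -0.71 (SE 0.10). Fbxl5, the iron-sensing ligase subunit that marks IRP2 for degradation, stood at 74.4 ± 3.26 against 61.8 ± 3.85 CPM and narrowly missed the threshold (0.27, SE 0.10, adjusted p = 0.0506 by edgeR). It passed under 6 of 15 alternatives, among them leaving out AAV9-CTRL replicate 1 (adjusted p = 0.0316 by edgeR) or 2 (0.0443), in a range from 0.0203 to 0.602.

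Of the other genes of heme synthesis and transport, 7 of 16 tested were lower (43.8%) and 1 higher (6.25%), with a median of -0.24. Over all genes tested, 25.0% were lower and 22.1% higher. With the length correction 5 were lower, with Alad (-0.09) and Urod (-0.24), 2 enzymes of the pathway, losing their calls, and the median was -0.14. Alas1, which makes the first precursor of heme outside red cells, was lower at 14.6, 13.7 and 12.9 CPM in AAV9-hFNDC4 replicates 1 to 3 against 27.3, 22.7 and 23.5 CPM in AAV9-CTRL replicates 1 to 3. The groups were well apart, and the log2 fold change of Alas1 was -0.83 (SE 0.13, adjusted p = 0.000396 by edgeR). Tmem14c, a mitochondrial membrane protein of porphyrin transport, was lower with -0.96 (SE 0.11, and -0.58 with the length correction), Slc25a38, the glycine carrier that feeds heme synthesis, with -0.90 (SE 0.15), and Slc48a1, a heme transporter of lysosomes, with -0.57 (SE 0.10). Alas2, the red cell form of the first enzyme, had 0 counts against 2. The first step and the last step thus differed in their calls, Alas1 lower and Fech not called without the length correction, and a difference between these 2 genes was not tested.

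Heme breakdown held 4 tested genes, of which Blvrb, a biliverdin reductase, was lower (-0.86, SE 0.11, and -0.49 with the length correction). That is 25% lower, against 25.0% of all genes tested. None was higher, against 22.1% (edgeR, with 0 higher at an unadjusted p under 0.05). With the length correction Hmox2 was called higher (0.32, adjusted p = 0.0423 by edgeR). Hmox1, heme oxygenase 1, which releases iron from heme and is induced by stress, stood at 81.1, 159 and 95.8 CPM in AAV9-hFNDC4 replicates 1 to 3 against 145, 174 and 173 CPM in AAV9-CTRL replicates 1 to 3. AAV9-hFNDC4 replicate 2 lay within the AAV9-CTRL range, as for Slc11a2. The log2 fold change of Hmox1 was -0.55 (SE 0.21, adjusted p = 0.0556 by edgeR), and without that library -0.89 (adjusted p = 0.000584 by edgeR). It passed under 6 of 15 alternatives, in a range of adjusted p from 0.000155 to 0.309.

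Iron-sulfur cluster assembly was lower in 13 of 23 tested genes (56.5%, against 25.0% of all genes tested) and higher in 1 (4.35%, against 22.1%), with a median of -0.43. With the length correction 11 were lower and 1 higher, and the median was -0.31 against -0.02 over all genes. Nubp2, a scaffold protein of the cytosolic pathway, stood at 22.1, 22.0 and 22.0 CPM in AAV9-hFNDC4 replicates 1 to 3 against 47.5, 45.5 and 52.0 CPM in AAV9-CTRL replicates 1 to 3. Its log2 fold change was -1.13 (SE 0.11, adjusted p = 2.52e-05 by edgeR), and that of its partner Nubp1 was -0.82 (SE 0.10). Mitochondrial Glrx5 was lower with -1.07 (SE 0.11) and Ciao2b, of the complex that targets clusters to proteins, with -0.79 (SE 0.10, and -0.41 with the length correction). The 1 higher gene, named after its value was seen, was Mms19, of the same targeting complex (0.30, SE 0.11), which was -0.05 with the length correction and lost its call without AAV9-hFNDC4 replicate 1 (adjusted p = 0.109 by edgeR) or 3 (0.0941), or AAV9-CTRL replicate 1 (0.0684) or 3 (0.0939), in a range from 0.0104 to 0.757.

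Of 3 further tested genes with a reported IRE, 1 was lower and 1 higher (33.3% each). Over all genes tested, 25.0% were lower and 22.1% higher. The higher gene was Cdc42bpa, a kinase (0.82, SE 0.12, and 0.32 with the length correction).

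**Figure D5:**
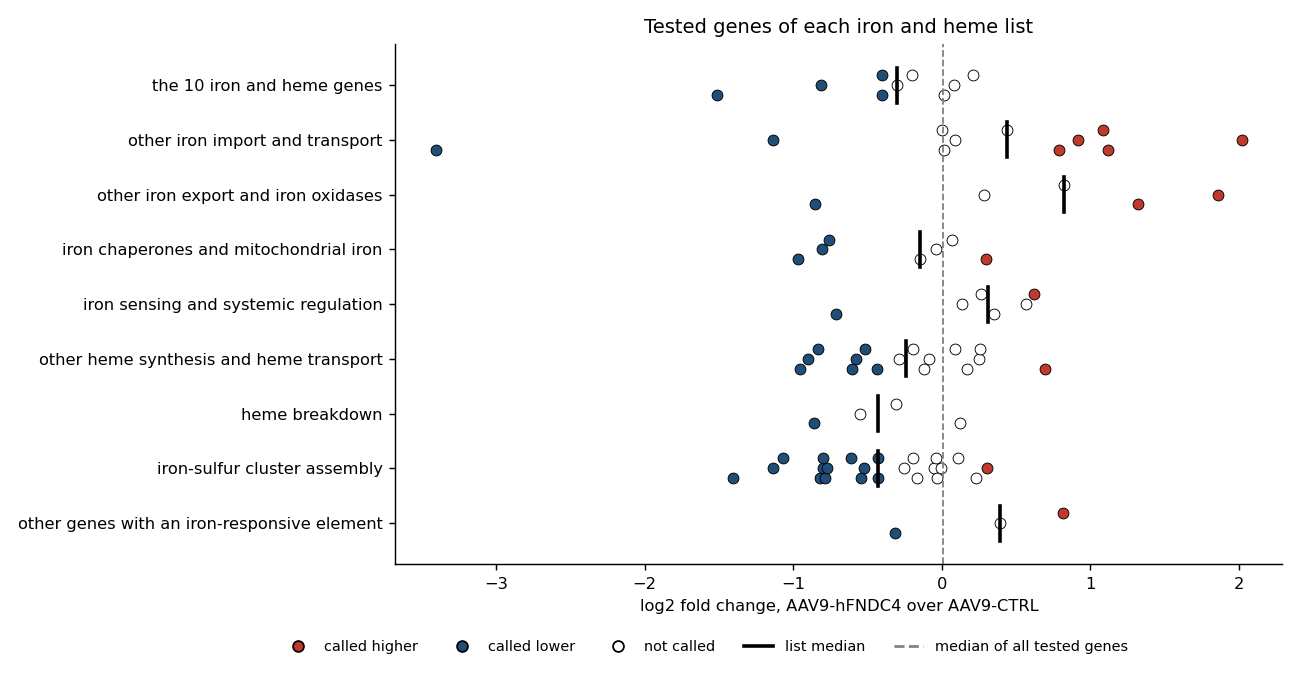
Log2 fold change of each tested gene (1 point a gene) in the 10 iron and heme genes and in 8 further lists, with the list median as a black bar and the median of all tested genes as a dashed line. Iron-sulfur cluster assembly has 13 lower genes and 1 higher, and the list of other import and transport has 5 higher and 2 lower.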

How the data were processed

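The deposited values are raw counts of reads for each gene symbol, 1 column per library, which the authors did not normalize. Use of fastp, HISAT2, HTSeq, R 3.2.0 and DESeq2 with build GRCm38 (mm10) is named per the submitters' processing notes. The sources used here do not give parameters, annotation release, strand setting or the treatment of reads that match several genes. Genes were tested with edgeR 4.0.16 in R 4.3.3 (filterByExpr, TMM, robust quasi-likelihood F test, Benjamini-Hochberg over 14663 genes, threshold 0.05), and SE is the log2 fold change divided by the square root of F. CPM used TMM library sizes, except marker sums and means and the floor and count ratio of Slc40a1, which used plain totals. Alternatives were RLE, upper-quartile, no filter, 1 CPM in 3 libraries, DESeq2 1.42.0, limma-voom (limma 3.58.1), the replicate number as a block, corrections for length and GC (loess, span 0.4, on GENCODE vM21 transcripts, matched for 91.3% of tested genes), and leaving out each library; they were applied to the pathway lists and the pathway genes named with a fold change after the data had been seen. A test of the fits on simulated data is not reported here and is not used as support. Replicate libraries differed beyond sampling noise (chi-square over degrees of freedom 8.62 to 63.4). The members, lists and named genes (the 4 with the smallest p of each list, plus Hmox1, Trf, Alas1 and Fbxl5) were chosen with earlier results of these data known; some genes of the lists are not reported here by name. Coordinates are those of GENCODE vM21 (GRCm38).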

Additional observations from a re-analysis of the deposited data

How the results depend on the processing

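Over 15 alternatives, the count of iron and heme genes called lower ranged from 3 to 6 and that called higher was 0 throughout, against 2974 to 4134 lower and 2299 to 3603 higher over all genes. Of 135 values of the 9 tested genes, 119 kept their direction and side of the threshold, 8 lost a call (all Fth1), 3 gained one in the same direction and 5 changed sign; 1 of these last, Fech with the length correction, was also called, so that 4 values gained a call in all. The sign changes were those of Ireb2 (-0.19 with the length correction and -0.19 with the GC correction) and Fech (-0.34 and -0.079, and -0.0087 to 0.052 when leaving out 1 library), neither of which was called before correction. Over the 8 pathway lists together, 9 to 15 genes were higher and 25 to 32 lower, iron-sulfur cluster assembly holding 11 to 14 of the lower genes; of the pathway genes given with a fold change, Mms19 changed sign (-0.052 with the length correction). With the replicate block, 3 of these genes were lower, Fth1 losing its call, and 2663 genes were higher and 3080 lower in all. Deviations of same-numbered libraries correlated at -0.07, -0.17 and -0.04, which gives no sign that the numbers pair the libraries. With 3 libraries in each group, these values cannot settle whether they do. Slc40a1, with at most 6 counts in a library, was too low to be tested at this depth. The length and GC corrections used the longest annotated transcript, which may not be the one expressed.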
